A study of Mus musculus with 44 samples.

Results

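Calmodulin is the main calcium sensor of neurons, and the set described here comprised 8 mouse genes of its circuit: the calmodulin genes Calm2 and Calm3, the calmodulin-binding proteins Nrgn, Gap43 and Pcp4, and the calcineurin subunits Ppp3ca, Ppp3cb and Ppp3r1. They were chosen by name, as the files' RefSeq identifiers that map to these symbols, and each of the 8 was among the 17158 identifiers in the files. Calmodulin binds calcium through EF hands and then activates kinases, cyclases and the phosphatase calcineurin. Calcineurin consists of a catalytic A subunit (Ppp3ca or Ppp3cb encodes it in brain) and the calcium-binding B subunit encoded by Ppp3r1, and it dephosphorylates synaptic and nuclear targets when calcium rises. Neurogranin (Nrgn, in dendrites), GAP-43 (Gap43, in growing axons) and PEP-19 (Pcp4) hold calmodulin through an IQ motif and tune how much of it is available.

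The study measured RNA (RNA-seq), ribosome-protected fragments (RPFs, the pieces of mRNA covered by translating ribosomes) and poly(A)-tail lengths (TAIL-seq or PAL-seq v2) in mouse neurons and brain tissue, to ask how translational efficiency, tails, microRNAs and neuronal activity relate. Mice were of the C57BL6J strain. Neurons were cultured from the cortices of newborn male and female pups, about 5 animals pooled per culture. At 14 days in vitro (DIV14) the study collected an unstimulated culture, a culture given BDNF for 30 min, a culture given glutamate plus glycine (glu/gly) for 30 min, and 3 cultures infected on day 5 with a lentivirus whose synapsin promoter drives EGFP alone (GFP), EGFP with miR-1 or EGFP with miR-155. A further 3 cultures were collected at DIV10 after 0, 10 or 30 min of KCl. The tissues were hippocampus at embryonic day 16, adult male hippocampus, adult male cortex, and the visual cortex of 8 mice of 6 to 7 weeks, all kept in the dark for 1 week and 4 of them then exposed to light for 1 h. No allele or transgene other than the lentivirus was named in the labels. Apart from the 4 dark and 4 light mice there were no replicates, and no other difference has a replicate check. Intervals printed after ratios of levels between those samples are 95% Clopper-Pearson intervals and cover counting error alone, and their differences in tail length and TE are given as values.

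Reads on genes ran from 448022 to 7689624 over the 12 RNA-seq libraries and from 2812215 to 23212489 over the 10 RPF libraries with unambiguous labels, and tags ran from 389654 to 1057812 in TAIL-seq and from 86841 to 4812273 in PAL-seq v2. Levels are given as CPM, in which the counts on all genes of a library are scaled to the same total. The stimuli registered in the immediate early gene Fos, which was at 13.8 CPM in RNA-seq of the unstimulated DIV14 culture, 463 with BDNF and 296 with glu/gly, and at 13.4, 43.3 and 245 after 0, 10 and 30 min of KCl. All 5 neuronal markers examined (Rbfox3, Snap25, Syt1, Tubb3 and Map2) were detected in every RNA-seq library, with summed levels of 2632 to 4008 CPM, but the sum hides members that differed in opposite directions. From embryonic to adult hippocampus Tubb3 was at 1812 and 270.2 CPM, whereas Snap25 was at 70.2 and 1689, Syt1 at 91.7 and 861, and Slc17a7, the vesicular glutamate transporter of excitatory neurons, at 56.0 and 1724. Markers of other cells differed between the groups. The 5 oligodendrocyte markers summed to 1582 and 1956 CPM in the adult tissues and to 34.9 to 100.7 elsewhere, with Mog listed at 0 in the embryo and in most cultures, and the 6 progenitor markers to 2494 in the embryo, 53.8 and 62.8 in the adult tissues and 160.0 to 749 in the cultures. In these bulk samples, fewer cells of a type and less RNA per cell cannot be told apart.

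Calm2 and Calm3 are shown first as sequence, because they encode the same protein from different mRNAs. Their coding sequences, read from RefSeq on GRCm38.p6 (mm10), are 450 nt long and differ at 78 bases, 74 of them at the third base of a codon, and 0 of the 149 encoded residues differ. Coding bases 61 to 180 of each, in which 20 bases differ (capitals), read:
Calm2: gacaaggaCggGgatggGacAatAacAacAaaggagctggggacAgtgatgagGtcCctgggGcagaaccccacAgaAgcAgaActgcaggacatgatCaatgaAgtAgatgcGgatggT
Calm3: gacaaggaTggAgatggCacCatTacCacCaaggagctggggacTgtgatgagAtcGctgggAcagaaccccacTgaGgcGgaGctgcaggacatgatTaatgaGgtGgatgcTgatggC
Reads can be shared between near copies elsewhere in the genome. Of the 371 windows of 30 nt in the counted part of Calm2, 68.7% also occurred outside the gene, spread over 5 stretches of 2 kb, and of those of Calm3 35.04%, all in 1 such stretch, whereas the figure was 0% for the other 6 genes, so the levels of Calm2 and Calm3 are uncertain to the extent that reads were split.

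The 3 calmodulin-binding proteins share a short IQ element. The coding stretches around it in Nrgn and Pcp4 are shown because it is what these proteins bind calmodulin with, with the bases that encode the match in capitals:
Nrgn: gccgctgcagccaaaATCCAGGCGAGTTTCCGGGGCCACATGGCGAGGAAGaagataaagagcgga
Pcp4: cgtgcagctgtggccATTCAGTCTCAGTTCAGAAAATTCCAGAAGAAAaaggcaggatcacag
The match lay at residues 33 to 44 of the 78 of Nrgn and 46 to 56 of the 62 of Pcp4. The catalytic subunits Ppp3ca (521 residues) and Ppp3cb (525 residues) were identical at 433 of 515 aligned residues (84.1%).

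On GRCm38.p6, the transcripts span chr17:87433401-87446935 (Calm2, minus strand), chr7:16915379-16924032 (Calm3, minus), chr9:37544493-37552745 (Nrgn, minus), chr16:42248552-42340651 (Gap43, minus) and chr16:96467606-96525793 (Pcp4, plus). Those of calcineurin lie at chr3:136670066-136937727 (Ppp3ca, plus), chr14:20499364-20546573 (Ppp3cb, minus) and chr11:17159298-17200380 (Ppp3r1, plus). Reads were counted over the coding exons without the first 50 nt.

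Per length of coding sequence, the calmodulin genes were among the most abundant mRNAs of every sample. In the authors' RPKM values, which divide by coding length and library total, Calm3 RNA ran from 382 in adult cortex to 1046 in adult hippocampus, with a median of 609 over the 12 libraries, which placed it at percentile 99.8 of genes or above. Reads on genes made up 13.8% to 46.1% of that total, so RPKM differs between libraries with this share. In CPM, Calm3 RNA was lowest in embryonic hippocampus (444) and highest in a culture (1554). Calm2 RNA ran from 180 to 704 RPKM, with a median of 286. As counted, the RNA of Calm3 exceeded that of Calm2 in 12 of 12 libraries, by 1.41 to 2.99 times. Its RPFs did so in 10 of 10, by 1.57 to 2.33 times. More of the windows of Calm2 (68.7%) than of Calm3 (35.04%) also occurred elsewhere in the genome. These ratios therefore depend on how shared reads were counted, and the part of this was not tested. In poly(A) tags Calm3 exceeded Calm2 in 9 of 9 cultures (TAIL-seq) and in 0 of 8 mice of the visual cortex (PAL-seq v2). Gap43 had a median RPKM of 372, Pcp4 of 181, Ppp3ca of 119, Ppp3r1 of 103 and Ppp3cb of 45.8, whereas Nrgn had a median of 18.6 with a range of 4.38 to 1438. Nrgn therefore had the widest spread of the set, and its 2 highest libraries were those of the adult tissues. Ppp3ca RNA exceeded Ppp3cb RNA in 11 of 12 libraries, the exception being embryonic hippocampus, where Ppp3ca was at 0.739 times Ppp3cb. In poly(A) tags Ppp3ca exceeded Ppp3cb in 5 of 9 cultures, at 0.542 to 1.18 times, and in 8 of 8 mice of the visual cortex. Between the cultures and these mice, method and sample cannot be told apart in tags.

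**Figure D1:**
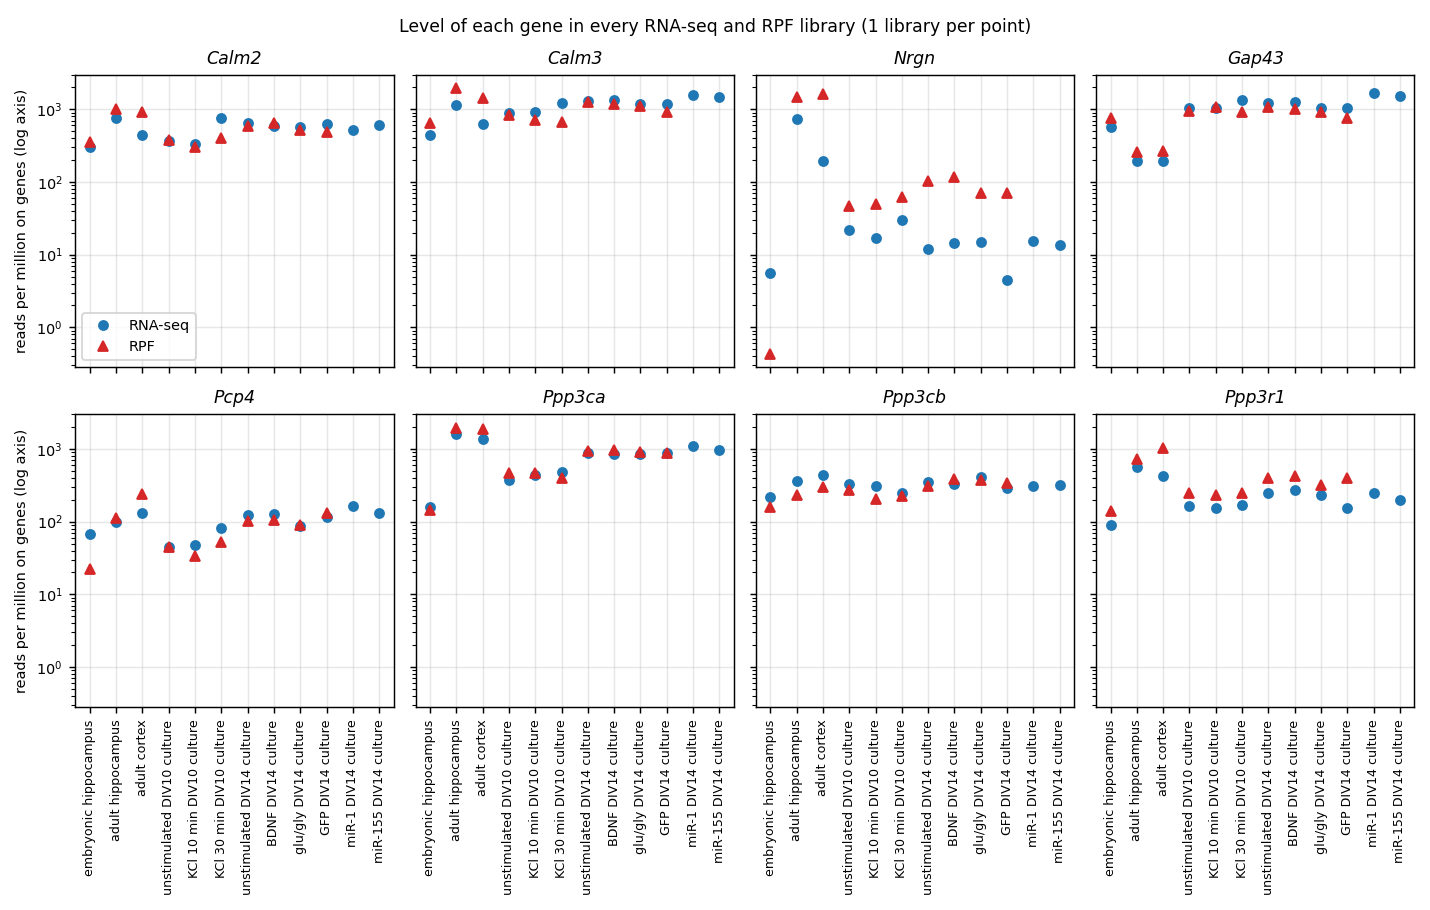
Level of each gene in every RNA-seq (circles) and RPF (triangles) library, in CPM on a log axis, with 1 library per point. Nrgn spans the widest range, from 0.43 CPM of RPFs in embryonic hippocampus to 1605 in adult cortex, and Gap43 RNA is lower in both adult tissues than in the embryo and the cultures.

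The comparison of adult with embryonic hippocampus addresses how the circuit differs between immature and mature tissue. RNA of 6 of the 8 genes was past 1.5-fold higher in the adult and that of 1 was lower, on a background in which 64.3% of 7347 genes were past 1.5-fold in either direction, 25.9% of them higher and 38.4% lower. Nrgn, at 2.58 RPM in the embryo, passed the filter of a mean of 10 RPM only through its adult level and had to be called higher. The background genes passed the same filter. Both RNA samples had been poly(A)-selected.

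The calmodulin genes differed by similar factors. Calm2 RNA was at 304 CPM in the embryo and 762 in the adult, 2.51-fold higher (2.39 to 2.63), and Calm3 RNA at 444 and 1133, 2.55-fold higher (2.45 to 2.66). Their RPFs differed slightly more, by 2.92-fold (2.84 to 2.99) and 3.07-fold (3.01 to 3.13). The intervals of the RNA folds of the pair overlapped, and those of the RPF folds did not.

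The calmodulin-binding proteins went apart. Nrgn was almost absent from the embryo, with 43 RNA-seq reads (5.59 CPM), 10 RPFs (0.43 CPM) and 0 tags, which allows up to 34.5 CPM of tags, and it reached 728, 1479 and 1447 CPM in adult hippocampus in the same order. Its RNA was 130-fold higher in the adult (96.5 to 180.0), its RPFs 3434-fold (1867 to 7162) and its tags at least 41.9-fold, taking 3 tags per library as the floor. Gap43 was the reverse, with 572 CPM in RNA-seq in the embryo and 194 in the adult, 2.95-fold lower (2.78 to 3.13), and its RPFs were 2.88-fold lower (2.79 to 2.96). Pcp4 RNA was similar in both, at 67.4 and 97.8 CPM (1.45-fold, 1.30 to 1.63), but its RPFs were at 22.6 and 111 CPM, 4.89-fold higher in the adult (4.44 to 5.38). Per length, Gap43 was the more abundant mRNA in the embryo (RPKM of 416 against 13.8 for Nrgn) and Nrgn in the adult (1438 against 113 for Gap43).

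The calcineurin subunits were all higher in the adult, to unequal degrees. Ppp3ca RNA was at 159 CPM in the embryo and 1603 in the adult, 10.1-fold higher (9.50 to 10.7), and its RPFs were 13.5-fold higher (13.0 to 14.0). Ppp3r1 RNA was 6.33-fold higher (5.83 to 6.87) and its RPFs 5.22-fold (5.02 to 5.42). Ppp3cb RNA was 1.65-fold higher (1.55 to 1.76) and its RPFs were 1.49-fold higher (1.43 to 1.56). The B subunit was therefore closer to Ppp3ca than to Ppp3cb. For RPFs, 6 of 8 members were higher and 1 lower, on a background of 73.1% of genes past 1.5-fold, 30.8% higher and 42.3% lower. Nrgn, with 10 RPFs in the embryo, again passed the filter only through its adult level. The median log2 ratio of the 8 genes, with Nrgn included, was 1.34 for RNA and 1.95 for RPFs, beside -0.29 and -0.29 over all genes. Between these samples the oligodendrocyte markers differed as well (34.9 against 1582 CPM), as did the progenitor markers (2494 against 62.8) and the neuronal markers Snap25, Syt1 and Slc17a7, which were higher in the adult, and Tubb3, which was lower. The part of these markers in the differences was not tested.

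**Figure D2:**
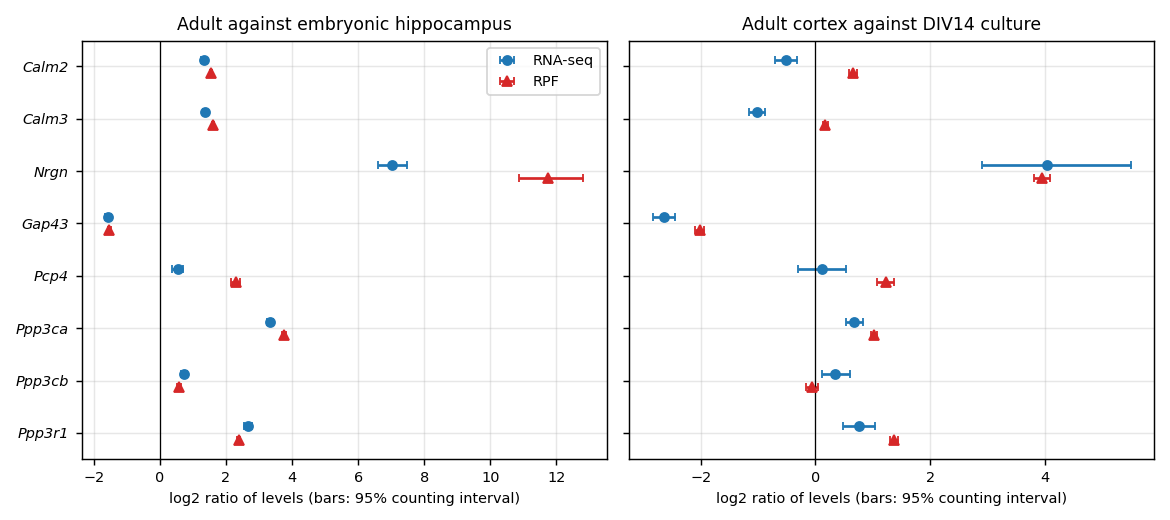
Log2 ratio of RNA-seq (circles) and RPF (triangles) levels between adult and embryonic hippocampus (left) and between adult cortex and the unstimulated DIV14 culture (right), with bars for the 95% counting interval. Nrgn lies farthest to the right and Gap43 farthest to the left in both, and for Pcp4 the RPF ratio exceeds the RNA ratio (1.45-fold for RNA and 4.89-fold for RPFs on the left).

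Translational efficiency (TE) is the log2 ratio of RPFs to RNA-seq, each in RPM, where RNA-seq reached 10 RPM, and changes are given relative to the median change of all genes. Between adult and embryonic hippocampus, 1 of the 7 members with a value was past 1.5-fold, where 44.7% of genes were. This was Pcp4, whose TE was -0.79 in the embryo and 1.24 in the adult, a change of 1.81 above the median with a counting SE of 0.11, at percentile 97.1 of all changes. The other 6 differed by -0.22 (Ppp3r1) to 0.48 (Ppp3ca). For tails, the 2 hippocampi hold medians of few tags, and 2 members had at least 50 tags in both. Relative to the median change of -10.0 nt, Calm2 was 14.0 nt longer in the adult (46.0 against 42.0 nt) and Calm3 4.5 nt (68.0 against 73.5 nt), where 23.1% of 169 genes were past 10 nt.

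Adult cortex and the unstimulated DIV14 culture compare adult male tissue with cells grown from the cortices of newborn male and female pups. Age, sex and growth in culture cannot be told apart between them. RNA of 3 of 8 members was past 1.5-fold higher in the tissue and that of 2 lower, on a background of 58.3% of genes past it, 24.8% higher and 33.6% lower. For RPFs the counts were 5 and 1, on a background of 35.8%, 16.3% higher and 19.5% lower. In RNA, Nrgn was at 2.54 RPM in the culture, so it passed the filter only through the tissue and had to be called higher. Nrgn was at 194 CPM in RNA-seq in the tissue and 11.8 in the culture (6 reads), 16.4-fold higher (7.47 to 45.1), and at 1605 and 104 CPM of RPFs, 15.5-fold higher (14.1 to 17.1). Gap43 RNA was 6.24-fold lower (5.46 to 7.15) in the tissue and its RPFs 4.05-fold lower (3.85 to 4.27).

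For the calmodulin genes, RNA and RPFs went opposite ways between these samples. Calm3 RNA was at 631 CPM in adult cortex and 1285 in the culture, 2.04-fold lower (1.85 to 2.25), while its RPFs were at 1432 and 1271 CPM, 1.13-fold higher (1.09 to 1.16). Calm2 RNA was 1.42-fold lower (1.248 to 1.625) and its RPFs 1.57-fold higher (1.499 to 1.64). Poly(A) tags, a separate count of the same mRNAs, put Calm2 1.28-fold higher (1.19 to 1.38) and Calm3 1.28-fold lower (1.20 to 1.36) in the tissue, so the difference of Calm2 had another direction in tags than in RNA-seq. Of the calcineurin subunits, Ppp3ca RNA was 1.60-fold (1.44 to 1.77) and Ppp3r1 RNA 1.69-fold higher (1.40 to 2.05) in the tissue, with RPFs at 2.02-fold (1.95 to 2.10) and 2.59-fold (2.46 to 2.73), and Ppp3cb was not past 1.5-fold in either assay. In TE, Calm2 (0.99 above the median change), Calm3 (1.02) and Pcp4 (0.95) were past 1.5-fold, 3 of 7 members where 41.9% of genes were. No tail of the 8 members was past 10 nt relative to the median change of -12.4 nt, where 22.1% of genes were. Besides the cell-type markers above, the excitatory marker Slc17a7 was at 1501 CPM in the tissue and 106 in the culture, and its part in the difference of Nrgn was not tested.

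Between the 2 adult tissues, RNA of 3 members was lower in cortex than in hippocampus (background 38.2%, 19% lower): Calm2 by 1.70-fold (1.58 to 1.84), Calm3 by 1.79-fold (1.68 to 1.91) and Nrgn by 3.76-fold (3.36 to 4.21). RPFs were past 1.5-fold for 1 member, Pcp4, at 2.19-fold higher in cortex (2.06 to 2.33; background 41.2%, 20.8% higher and 20.4% lower), and Nrgn RPFs were at 1605 CPM in cortex and 1479 in hippocampus. TE relative to the median change was past 1.5-fold higher in cortex for 4 members (background 34.8%, 18.3% higher): Nrgn by 2.04, Ppp3r1 by 0.95, Pcp4 by 0.72 and Calm2 by 0.62. The hippocampal RNA had been poly(A)-selected and the cortical RNA depleted of ribosomal RNA, so that tissue and library preparation cannot be told apart in the RNA-seq.

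The RNA-seq and the poly(A) tags disagreed about Nrgn. Tags put Nrgn at 4226 CPM in adult cortex by TAIL-seq and 1447 in adult hippocampus by PAL-seq v2, 2.92-fold higher in cortex (2.60 to 3.29), against the 3.76-fold lower RNA-seq value. Tag method and tissue cannot be told apart in that ratio. In the 7 cultures with all 3 assays, Nrgn had 4.46 to 29.9 CPM in RNA-seq and 157 to 424 CPM of tags, so that tags exceeded RNA-seq by 8.64 to 50.02 times, and in adult cortex by 21.8 times. The median of this ratio was between 0.731 and 1.40 in those samples. It was taken over the 1132 to 2503 genes with at least 50 RNA-seq reads, 50 tags and 50 RPFs. Nrgn, with 2 to 29 RNA-seq reads per culture, was not among them in the cultures, so this median is not that of genes with as few reads. In poly(A)-selected adult hippocampus the ratio of tags to RNA-seq was 1.99 for Nrgn beside a median of 2.30 over genes past the same minima. The CPM of RNA-seq grows with coding length and that of tags does not, so a short coding sequence raises the ratio of tags to RNA-seq. In the unstimulated DIV14 culture this ratio was 3.27 for Pcp4 (139 nt counted), 0.716 for Ppp3ca (1516 nt) and 1.77 for Ppp3cb (1528 nt). The counted coding part of Nrgn was 187 nt long with 70.6% G and C, at percentile 99.4 of 17002 transcripts. The parts of length and base composition in the ratio were not tested. The TE of Nrgn, 4.64 in adult cortex (percentile 99.96), depends on its RNA-seq value. With tags as the denominator, its RPF-to-tag ratio stood at percentile 25.3 in adult cortex, at 77.4 in adult hippocampus, and at 10.4 to 28.9 in the cultures. Coding length cancels in TE but not in this ratio, which is lowered for short coding sequences, so the 2 percentiles cannot be compared. In the unstimulated DIV14 culture, Pcp4 was at percentile 15.1 of this ratio, Nrgn at 17.6, Ppp3cb at 38.1 and Ppp3ca at 81.0.

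Across the 10 conditions with RPFs, the TE of Ppp3r1, the calcineurin B subunit, was above the median gene in each, at percentiles 72.0 to 96.5. That of Ppp3cb ran from percentile 34.1 to 78.9, and was at 34.1, 36.2 and 39.0 in the 3 tissues. Calm2 and Calm3 stood at percentiles 93.5 and 95.3 in adult cortex and at 38.0 and 38.8 after 30 min of KCl. Pcp4 ran from percentile 11.6 in embryonic hippocampus to 91.1 in adult cortex, the widest range of the 7 members other than Nrgn.

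With age in culture, from DIV10 to DIV14, RNA of 4 of the 7 members past the filter was past 1.5-fold higher (background 19.7% in either direction, 9.68% higher): Pcp4 by 2.69-fold (1.84 to 3.95), Ppp3ca by 2.36-fold (2.07 to 2.70), Calm2 by 1.74-fold (1.5 to 2.01) and Ppp3r1 by 1.54-fold (1.23 to 1.94). In RNA, Pcp4 was at 8.86 RPM at DIV10 and 26.3 at DIV14, so it passed the filter only through DIV14. RPFs of 6 of 8 were higher (background 24.2%, 11.6% higher), among them Pcp4 by 2.28-fold (1.99 to 2.61), Nrgn by 2.19-fold (1.91 to 2.50) and Ppp3ca by 2.00-fold (1.92 to 2.09). Gap43 and Ppp3cb were the exceptions, with RPF ratios of 1.14 (1.10 to 1.18) and 1.15 (1.07 to 1.23). In poly(A) tags, these ratios were 1.957 for Pcp4, 2.42 for Ppp3ca, 1.43 for Calm2 and 1.69 for Ppp3r1. TE of 0 of 6 members changed past 1.5-fold (background 10.2%, 5.89% higher and 4.27% lower). The tail of Ppp3ca was 13.0 nt shorter at DIV14 relative to the median (105 against 111 nt), 1 of 8 members where 17.1% of genes were past 10 nt, 8.94% longer and 8.19% shorter. The DIV10 value was the longest Ppp3ca tail of the 9 cultures, which ran from 90.1 to 111 nt with a median of 98.8 nt. Progenitor markers summed to 749 CPM at DIV10 and 511 at DIV14, and their part was not tested. With 1 culture of each age, age and culture cannot be told apart.

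Few members differed after short stimulation. With BDNF, 0 of 7 members were past 1.5-fold in RNA (background 9.54%, 4.25% higher and 5.28% lower), 0 of 8 in RPFs (5.1%), 0 of 7 in TE (7.74%) and 0 of 8 past 10 nt in tail (15.2%), and their RNA log2 ratios ran from -0.13 (Calm2) to 0.13 (Ppp3r1). With glu/gly, the same counts were 0 of 7, 0 of 8, 0 of 7 and 0 of 8 (14.6%, 5.75%, 12.6% and 15.9%), and RNA log2 ratios ran from -0.50 for Pcp4 to 0.24 for Ppp3cb. After 10 min of KCl, 0 of 6 in RNA (5.78%), 0 of 8 in RPFs (11.8%) and 0 of 6 in TE (21.6%) were past the threshold, and 1 tail of 8 was (15.4%), that of Ppp3ca at 12.1 nt shorter relative to the median (98.7 against 111 nt, 185 and 156 tags). The unstimulated DIV10 library, with the longest Ppp3ca tail of the cultures, also gave the Ppp3ca tail difference between DIV14 and DIV10.

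After 30 min of KCl, RNA-seq and tags parted. Calm2 RNA was at 746 CPM against 368 without KCl, 2.03-fold higher (1.79 to 2.30), and Pcp4 RNA was 1.79-fold higher (1.23 to 2.61; 65 and 54 reads), 2 of 7 members where 18.6% of genes were past 1.5-fold. Pcp4 was at 8.86 RPM without KCl and 11.2 with it, so it passed the filter only through the KCl library. Tags were at 1146 against 1143 CPM for Calm2 and 202 against 203 for Pcp4, ratios of 1.00 (0.907 to 1.11) and 0.994 (0.780 to 1.27). RPFs of 0 of 8 members were past 1.5-fold (13.8%). TE was lower for Calm2 (-0.81 relative to the median) and Calm3 (-0.70), 2 of 6 members where 26.8% of genes were past it. The tail of Pcp4 was 13.0 nt longer relative to the median (117 against 101.3 nt), 1 of 8 where 14.3% were. Reads on the listed genes made up 13.8% of the authors' RPM total in this RNA-seq library and 19.5% in its control, and the part of this in the RNA ratios was not tested.

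Transduction and the microRNAs gave few differences. GFP virus against the unstimulated culture put Ppp3r1 RNA 1.61-fold lower (1.19 to 2.19; 70 and 128 reads), 1 of 7 members (background 13.4%), with its RPFs at a ratio of 1.00 (0.929 to 1.08), 0 of 8 members past 1.5-fold in RPFs (9.94%) and Ppp3r1 the 1 of 7 past it in TE (0.71 relative to the median; 12.8%). The tail of Nrgn was 11.6 nt shorter relative to the median, on 87 and 373 tags, 1 of 8 (14.2%). miR-1 against GFP put Gap43 RNA 1.59-fold higher (1.44 to 1.77) and Ppp3r1 RNA 1.59-fold higher (1.21 to 2.10), 2 of 7 (background 12%), with tag ratios of 1.21 (1.06 to 1.38) and 1.29 (1.12 to 1.49), and 0 of 8 tails past 10 nt (17%). miR-155 against GFP gave 0 of 7 in RNA (8.96%) and 1 of 8 tails (15.7%), Nrgn at 10.6 nt longer relative to the median. Nrgn had 87 tags in the GFP culture (223 CPM), 205 with miR-1 (459 CPM) and 220 with miR-155 (458 CPM), which put it 2.06-fold (1.59 to 2.67) and 2.05-fold (1.59 to 2.66) higher than in the GFP control that the 2 miRNA cultures share. A miRNA pairs with mRNAs through its seed, and the seed of miR-155 (capitals, bases 2 to 8) is shown because its complement was searched for in the members:
miR-155: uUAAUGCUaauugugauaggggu
Its match AGCATTA occurred on the mRNA strand in the annotated 3′ UTR of 0 of the 8 members, beside 8.09% of 16583 UTRs. Matches of miR-1 were not searched for here.

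Several members kept 1 side of the median tail in nearly every library. Relative to the median gene of its library, and counting libraries with at least 50 tags of the gene, Calm2 tails were shorter in 20 of 20 libraries (deviations of -22.0 to -5.06 nt) and Calm3 tails longer in 20 of 20 (by 4.05 to 14.0 nt). Nrgn tails were longer in 19 of 19 (1.54 to 30.0 nt) and Gap43 tails shorter in 10 of 10, with a deviation of -23.9 to -12.7 nt. Ppp3ca tails were shorter in 17 of 19 libraries and Ppp3cb tails in 15 of 19, whereas those of Ppp3r1 were shorter in 7 of 19 and those of Pcp4 in 11 of 19. These counts describe samples that share cultures, preparation and annotation.

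**Figure D3:**
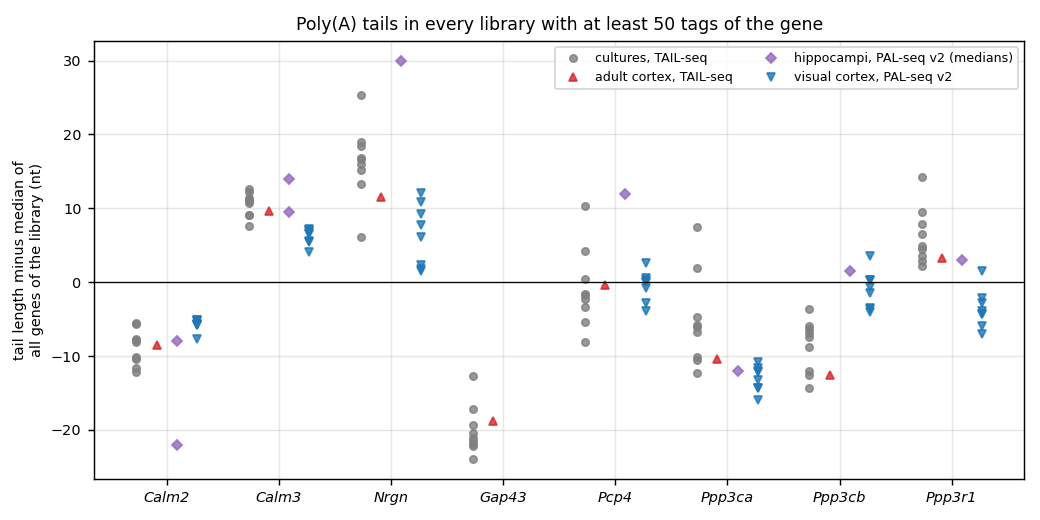
Poly(A)-tail length of each gene minus the median of all genes of the same library, in nt, for libraries with at least 50 tags of the gene (circles cultures and triangle adult cortex by TAIL-seq, diamonds hippocampi as medians and inverted triangles visual cortex mice by PAL-seq v2). All points of Calm3 and Nrgn lie above 0 and all points of Calm2 and Gap43 below it.

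Within each mouse, differences between genes were tested by sign flips over the 8 mice, for 9 pairs, with the smallest two-sided p at 0.0078. Calm3 tails were 11.9 nt ± 0.50 longer than Calm2 tails (SD, n = 8), in 8 of 8 mice (exact permutation p = 0.0078, adjusted 0.010), and the same difference ran from 13.1 to 23.2 nt in the 9 cultures. Ppp3ca tails were shorter than Ppp3cb tails in 8 of 8 mice, with a difference of -11.9 nt ± 1.5 (exact permutation p = 0.0078, adjusted 0.010, n = 8), whereas they were longer in 7 of 9 cultures, by up to 14.9 nt. In the unreplicated tissues the difference was 2.19 nt in adult cortex by TAIL-seq and -13.5 nt, between medians, in adult hippocampus by PAL-seq v2. The cultures were read by TAIL-seq and the mice by PAL-seq v2, so method and sample cannot be told apart between them. Ppp3r1 tails were 9.42 nt ± 2.03 longer than Ppp3ca tails, and Nrgn tails 6.96 nt ± 3.03 longer than Pcp4 tails and 12.2 nt ± 3.93 longer than Calm2 tails, each in 8 of 8 mice (exact permutation p = 0.0078, adjusted 0.010, n = 8). Nrgn and Calm3 tails differed by 0.27 nt ± 3.82, longer in Nrgn in 4 of 8 mice (exact permutation p = 0.86, adjusted 0.86, n = 8), between -4.33 and 5.39 nt. Ppp3ca had the shortest tail of the 7 measurable members in each of the 8 mice. Nrgn tails exceeded Gap43 tails by 27.3 to 39.1 nt in the 9 cultures and adult cortex.

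Tag levels within the mice were tested the same way. Calm3 tags were at 0.485 times Calm2 tags on average (0.457 to 0.560), lower in 8 of 8 mice (exact permutation p = 0.0078, adjusted 0.010, n = 8), which is the reverse of the 9 cultures, where Calm3 tags were at 1.37 to 1.94 times Calm2 tags. In adult cortex by TAIL-seq the ratio was 1.10, and by PAL-seq v2, the method of the visual cortex libraries, it was 1.05 (0.944 to 1.17) in adult and 0.975 (0.748 to 1.27) in embryonic hippocampus. In the mice, Ppp3ca tags were at 2.43 times Ppp3cb tags (2.08 to 2.90; exact permutation p = 0.0078, adjusted 0.010, n = 8), against 0.542 to 1.18 times in the 9 cultures. Ppp3r1 tags were at 0.972 times Ppp3ca tags in the mice (exact permutation p = 0.44, adjusted 0.49, n = 8). Between the visual cortex libraries and those of the cultures or adult cortex, method and sample cannot be told apart. Gap43 had 247 CPM of tags in adult cortex by TAIL-seq (148 tags) and 0 to 17 tags per mouse, at most 4.05 CPM, in the visual cortex, while PAL-seq v2 of adult hippocampus gave it 153 CPM (34 tags). Of 1086 genes with at least 200 CPM of tags in adult cortex, 14 were under 5 CPM in all 8 mice.

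The 3′ ends are shown because tags are read from them. Each annotated 3′ UTR carries a poly(A) signal (AATAAA or ATTAAA, capitals) in its last 50 bases, as do 80.2% of 16583 UTRs, and these are shown for 6 members:
Calm2: tatttgttttccAATAAAaaaaattacaat
Calm3: tcaatgttttccAATAAAatacagtgacta
Nrgn: tggaatgtgaatAATAAAgaggaatgtcta
Gap43: aaaggttaaaaaATTAAAaaaaaaaa
Ppp3ca: ctatggcatagaAATAAAcatttgacattg
Ppp3cb: gtctaatgcaatATTAAAttgtaaaccaat
The cytoplasmic polyadenylation element (TTTTAT or TTTTAAT on the mRNA strand, which do not overlap each other in a match) occurred in the 3′ UTR of 6 members, all but Gap43 and Pcp4, and in 57.3% of all UTRs. The Pumilio element TGTANATA occurred in 2, Calm3 and Ppp3r1, and in 23.9% of all. The 3′ UTRs were 276 nt (Pcp4), 477 nt (Gap43), 626 nt (Calm2), 862 nt (Nrgn), 1569 nt (Calm3), 2074 nt (Ppp3r1), 2120 nt (Ppp3cb) and 2502 nt (Ppp3ca) long.

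Light after dark adaptation was the 1 comparison with replicates. In a quasi-likelihood fit with edgeR over all genes, 128 of 9554 genes passed an adjusted p of 0.05, which is 1.34% of them, and 0 of the 7 members tested did. At an unadjusted p under 0.05 the number of members was also 0, and DESeq2 called none of them. The stimulus registered in Fos, at 58.5 ± 65.5 CPM of tags in the dark and 756 ± 222 in the light (SD, n = 4 each, log2 fold change 3.91, edgeR adjusted p = 1.4e-06), and in Egr1 (3.15, edgeR adjusted p = 1.0e-11).

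Ppp3r1 came closest among the members. It was at 1228, 1464, 1105 and 1245 CPM of tags in the 4 dark mice and at 1320, 1459, 1548 and 1303 in the 4 light mice, and the 2 groups overlapped. Its log2 fold change was 0.18 ± 0.09 (SE, edgeR adjusted p = 0.53), and the exact permutation p of its CPM was 0.17. Ppp3ca was at 1243, 1259.5, 1275 and 1499 in the dark and 1329, 1546, 1532 and 1278 in the light, which also overlapped (0.14 ± 0.09, edgeR adjusted p = 0.68). Nrgn was at 3755 ± 254 in the dark and 3988 ± 326 in the light (SD; 0.11 ± 0.08, edgeR adjusted p = 0.71). Calm2 differed by 0.09 ± 0.07, Calm3 by -0.01 ± 0.07, Pcp4 by 0.15 ± 0.14 and Ppp3cb by -0.04 ± 0.08 on the log2 scale (edgeR adjusted p = 0.79, 0.99, 0.82 and 0.94). The 95% intervals of the 7 folds lay between 0.868 (Ppp3cb) and 1.34 (Pcp4), which bounds the change that these mice allow.

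Tails did not separate the 2 groups either. With limma, 10 of 4321 genes passed an adjusted p of 0.05 (0.231%), and 0 of 7 members did. Their mean tails were 0.14 to 3.31 nt longer in the light with an SE of 6.68 nt (limma adjusted p = 0.999 for each), and exact permutation p-values over the 70 splits of 4 against 4 ran from 0.51 to 0.97, where the smallest possible is 0.029. With each library centred on its median tail, the differences of all 7 took the opposite sign, from -0.70 to -3.88 nt with SEs of 2.06 to 3.00 nt (limma adjusted p of 0.59 to 0.93). Calm2 tails were 79.8 ± 7.66 nt in the dark and 83.0 ± 7.28 nt in the light, and Ppp3ca tails 73.4 ± 7.73 and 74.8 ± 7.04 nt (SD, n = 4 each). The spread was shared by all genes: median tails of the libraries fell between 77.5 and 83.3 nt in 4 mice (dark 3 and 4, light 1 and 4) and between 90.6 and 97.8 nt in the other 4, in both groups alike.

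**Figure D4:**
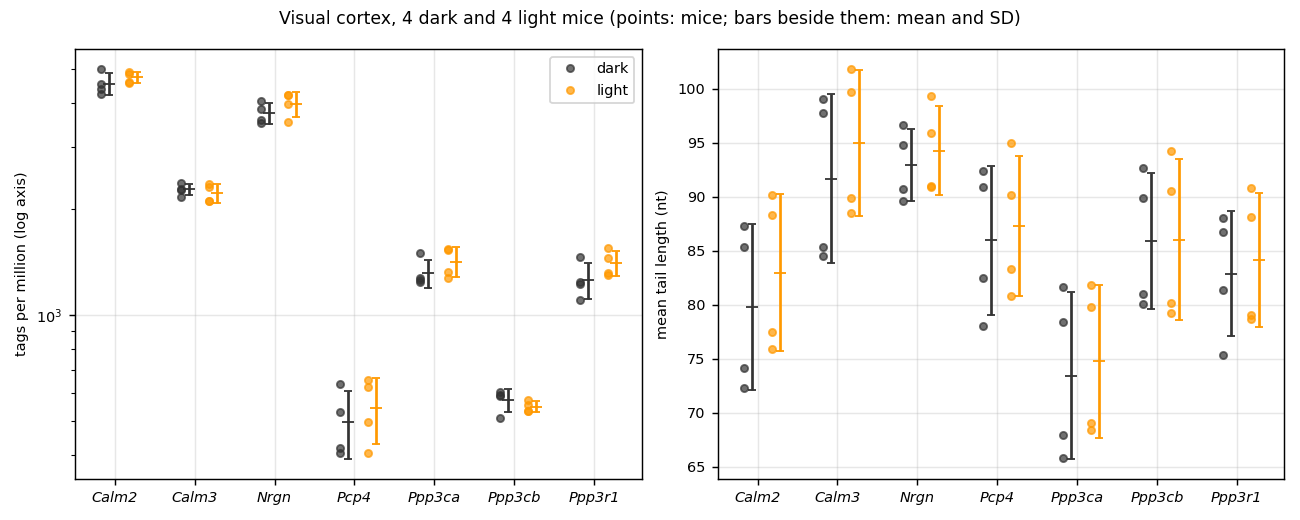
CPM of tags on a log axis (left) and mean tail length in nt (right) of 7 genes in the visual cortex of 4 dark and 4 light mice, with points for mice and bars for the mean and SD. The groups overlap for each gene, and Ppp3ca has the shortest tails (73.4 nt in the dark and 74.8 nt in the light on average). Gap43, at most 17 tags per mouse, is not drawn.

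Other genes of the calmodulin pathway were counted from lists. In adult against embryonic hippocampus, RNA of 11 of 12 measured genes of calmodulin and other EF-hand proteins was past 1.5-fold higher and that of 1 lower, on a background of 25.9% of genes higher and 38.4% lower. Of the calmodulin-dependent enzymes, 13 of 18 were higher and 1 lower, among them Camk2a, the calcium/calmodulin-dependent kinase II subunit, at 147-fold (126 to 171). Calcineurin regulators and substrates had 6 of 9 higher and 1 lower, and IQ and calmodulin-storing proteins 5 of 11 higher and 4 lower. Genes with few embryonic reads entered these counts only through their adult level and had to differ, so the counts describe the genes that passed the filter and support nothing about the lists. From DIV10 to DIV14, 3 of 10 EF-hand genes, 7 of 16 enzymes, 2 of 7 calcineurin genes and 0 of 7 IQ genes were higher, and 1, 0, 1 and 1 were lower, on a background of 9.68% of genes higher and 10% lower. The largest ratios were those of Calb1, which encodes calbindin (5.08-fold, 3.64 to 7.17), and Itpka, an inositol trisphosphate kinase (3.98-fold, 2.84 to 5.63). They had 53 and 57 reads at DIV10, under 10 RPM, so they passed the filter only through DIV14. Counts of higher genes from DIV10 to DIV14 therefore also support nothing about the lists. With BDNF, 0 of 10, 0 of 17 and 0 of 9 genes of the EF-hand, enzyme and calcineurin lists and 2 of 8 IQ genes were past 1.5-fold, both higher, on a background of 9.54% of genes, 4.25% higher and 5.28% lower. After light, 0 genes of any list passed an adjusted p of 0.05 with edgeR (15, 20, 14 and 11 tested), and the lowest p-values were those of Adcy1, the calmodulin-stimulated adenylyl cyclase (log2 fold change 0.29 ± 0.09, edgeR adjusted p = 0.17), and Dnm1, the calcineurin substrate dynamin (0.24 ± 0.09, edgeR adjusted p = 0.28).

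Likeness of pattern was described by Pearson's r of log2(RPM + 1) over the 12 RNA-seq libraries, among 5625 genes with a mean of at least 10 RPM. The most alike was Atp2b1, a plasma membrane calcium pump, for Ppp3ca (r = 0.99), and the other members' nearest genes were Sncb for Nrgn (0.97), Ap2a1 for Ppp3cb (0.98), Mink1 and then Dnm1 for Ppp3r1 (0.97 and 0.97), Ppa1 for Gap43 (0.96), Nkrf for Pcp4 (0.96), Hmox2 for Calm3 (0.94) and Klhl2 for Calm2 (0.90). Among the members, Ppp3r1 was nearer to Ppp3ca (0.88) and Nrgn (0.87) than to Gap43 (-0.63), and Nrgn and Gap43 were opposed (-0.84). These values rest largely on 2 adult tissues, an embryonic one and 9 cultures prepared alike, with 448022 to 2111244 reads on genes. RNA of both hippocampi was poly(A)-selected, and that of adult cortex and the DIV14 cultures was depleted of ribosomal RNA. The part of this in the correlations was not tested.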

How the data were processed

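RNA-seq, RPF and tail libraries were analysed as the authors deposited them, with 44 samples, of which 42 could be assigned to a group from the labels. For RNA-seq and RPFs, the authors counted reads over the coding sequence of 1 RefSeq transcript per gene without its first 50 nt, on mm10, and deposited the counts with RPM and RPKM values, scaled to a total that exceeds the reads on genes. Per the submitters' processing notes, STAR 2.4.2 and bedtools were used. For tails, the authors deposited tag counts and the mean tail length in nt of each gene. For the 2 hippocampi the deposited tail values are multiples of 0.5 nt and were taken as medians. A deposited log2 TE table served as an alternative, and the authors' combined table of the visual cortex was not used. A pair of RPF libraries carry labels that contradict each other (miR-1 and miR-155) and entered no comparison.

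The members and the gene lists were chosen with earlier results of these data known. Levels were scaled by reads or tags on genes (CPM). The 6 DIV14 cultures were made in 2 batches that the labels do not name. Without replicates, members with a mean of at least 10 RPM (TE, 10 RPM in RNA-seq of both samples) or 50 tags were called past 1.5-fold or 10 nt, with no test. TE and tail changes were taken relative to the median of all genes. Light was tested with edgeR 4.0.16 (quasi-likelihood test, TMM scaling, filterByExpr) on the tag counts, and with limma 3.58.1 on mean tails of genes with at least 50 tags in each library, with light as the only term, and DESeq2 1.42.0 as an alternative. Limma gave each gene the same SE, since its prior degrees of freedom were infinite. On simulated counts the edgeR step recovered 35.8% of genes changed 1.5-fold, 88.1% changed 2-fold and 97.0% changed 4-fold (9392 genes, 6 false calls), and the limma step 47.8% of tails changed by 20 nt and 95.5% by 30 nt (4321 genes, 7 false calls). The simulated counts had the same fixed dispersion for all genes. The simulated tails had 1 SD (8.79 nt) for all genes and no shift shared within a library, unlike the mice, so these shares need not hold for them. All members were named, of the lists up to 3 genes with the largest RNA ratios (at least 50 reads) or the 2 lowest p, of which those described here are a part, and of like genes the nearest. Of 17158 identifiers, 17010 carried a symbol in RefSeq. The light tests set the difference between 4 dark and 4 light mice against the spread between mice. Tests of gene pairs flipped the signs of within-mouse differences over all 8 mice, dark and light pooled. Some items are not reported here.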

Additional observations from a re-analysis of the deposited data

Results flagged for a closer look

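Of 30 comparisons of 4 mice each (level and tail of each member measured, in the dark and in the light), 2 had a mouse whose gap to its nearest neighbour exceeded the critical value of Dixon's test, and chance gives about 1 in 20. In the dark, Ppp3ca was at 1499 CPM of tags in mouse 4 and at 1243 to 1275 in the other 3. In the dark, Ppp3cb was at 511 CPM of tags in mouse 1 and at 590.2 to 605 in the other 3.

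The 2 RPF libraries whose labels contradict each other held some members well above the GFP culture, and are given as values of samples without a group. The first, with 817114 RPFs, held Calm3 at 1648 CPM of RPFs (929 in GFP), Gap43 at 1352 (766 in GFP) and Nrgn at 177 (71.2 in GFP). The second held Nrgn at 134. Which of them received miR-1 was not determined here.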

How the results depend on the processing

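No member passed the threshold after light under any alternative run (RLE scaling, DESeq2, other filters, other tag minima, log2 or centred tails, a variance trend, the replicate block, and leaving out each mouse). Over all genes, edgeR calls ran from 100 to 150 when 1 mouse was left out, against 128, with 113 under the replicate block and 192 without a filter. Calls of changed tails, 10 with limma, were 1 on the log2 scale, 3 after centring on the library median, 1 under the replicate block, and 1 to 21 when 1 mouse was left out (19 without dark 1, 2 without dark 2, 1 without dark 3, 1 without dark 4, 9 without light 1, 1 without light 2, 2 without light 3 and 21 without light 4). Same-numbered dark and light mice correlated at -0.20 to 0.03 in tags and -0.11 to 0.04 in tails, so the numbers do not pair them.

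Of the counts of members without replicates, those that moved by over 1.5 times were as follows. Not relative to the median of all genes, TE gave 2 (main 1) for adult against embryonic hippocampus, 7 (4) for adult cortex against hippocampus, 3 (0) for 10 min and 0 (2) for 30 min of KCl, and tails gave 0 (1) for adult against embryonic hippocampus, 6 (0) for adult cortex against culture, 0 (1) for DIV14 against DIV10, 2 (1) for 30 min of KCl, 3 (1) for GFP and 0 (1) for miR-155. With the authors' RPM, RNA gave 6 (3) for adult cortex against hippocampus, 1 (2) for 30 min of KCl and 5 (2) for miR-1, and RPFs gave 1 (0) for glu/gly, 2 (0) for 10 min of KCl and 1 (0) for GFP. With poly(A) tags in place of RNA-seq reads, RNA gave 0 for 30 min of KCl (2), for GFP (1) and for miR-1 (2). With at least 100 tags in both, tails gave 0 (1) for GFP and for miR-155, since Nrgn had under 100 tags with GFP. With tags, Nrgn was reversed between adult cortex and hippocampus (log2 ratio 1.55), as was Pcp4 at 30 min of KCl (-0.0093). The cause of these shifts was not tested. Of values of single members, 525 stayed within their spread and 157 moved.

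Depth limits Nrgn, with 2 to 29 RNA-seq reads per culture, the embryonic tails (0 to 27 tags for 6 of the members), and all comparisons with 1 library per group, whose intervals hold counting error only.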
